A study of Mus musculus with 12 samples.

Results

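The response of inguinal adipocytes to cold was measured here by comparing the adipocyte nuclei of 1 cold-exposed library with those of 1 room-temperature library of the depot labelled iWAT, an abbreviation usually read as inguinal white adipose tissue. A nucleus was taken as an adipocyte nucleus when its summed counts of 6 adipocyte genes (Adipoq, Plin1, Plin4, Lipe, Cidec and Acsl1) reached at least 3 and exceeded the sum of 6 genes of other cell classes (Flt1, Ptprb, Lama2, Dcn, Mrc1 and Ptprc). The nuclei were thus chosen by measured counts of these 12 genes, and the room-temperature library gave 5245 of them and the cold library 2927, together 8172 of the 74816 adipocyte nuclei of the series. The counts of these nuclei were summed per library and scaled to the same total (CPM, the usual scale of sequencing counts), and every gene was compared.

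The series holds single-nucleus RNA sequencing of mouse fat, with 12 libraries in 12 groups that combine depot, age and housing temperature. Both iWAT groups were male C57BL/6J mice fed normal chow. The titles give their age as 6 months, while another label of the same samples says 16 weeks. The control group was kept at 22 °C and the cold group at 4 °C for 3 days. No transgene or drug is named, and the labels do not say how many animals went into a library. Since each group is a single library without replicates, no test between the conditions could be made. All intervals below are exact 95% intervals that cover counting error only. Differences between animals, dissections and library preparations cannot be told apart from that of temperature.

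Cold activates the sympathetic nerves of fat, and the noradrenaline they release acts through β-adrenergic receptors, cyclic AMP and protein kinase A to drive lipolysis and heat production. In inguinal fat some adipocytes then take on a beige state, in which uncoupling protein 1 (Ucp1) lets the mitochondrial proton gradient run down as heat. Sustained cold is also known to induce de novo lipogenesis in thermogenic fat, the building of fatty acids from citrate and acetate that refills lipid stores while they are being burned.

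The promoters of 5 genes are shown first, because the results turn on these genes: they are the 3 fatty acid synthesis genes and the 2 thermogenic genes with the highest ratios. Acly, which encodes ATP citrate lyase, a source of cytosolic acetyl-CoA, has its window at chr11:100527951-100528250 on the minus strand. Me1 encodes malic enzyme, a source of NADPH, and its upstream window lies at chr9:86695865-86696164 on the minus strand. Fasn encodes fatty acid synthase and has its window at chr11:120824498-120824797 on the minus strand. The window of Ucp1 lies at chr8:83290098-83290397 on the plus strand. Dio2, the deiodinase that activates thyroid hormone, has its window at chr12:90738989-90739288 on the minus strand. Each sequence runs 5′ to 3′ from 250 bases before to 50 bases after the annotated start, comes from RefSeq on GRCm38.p6, and has matches to the motifs named below in capitals.
Acly: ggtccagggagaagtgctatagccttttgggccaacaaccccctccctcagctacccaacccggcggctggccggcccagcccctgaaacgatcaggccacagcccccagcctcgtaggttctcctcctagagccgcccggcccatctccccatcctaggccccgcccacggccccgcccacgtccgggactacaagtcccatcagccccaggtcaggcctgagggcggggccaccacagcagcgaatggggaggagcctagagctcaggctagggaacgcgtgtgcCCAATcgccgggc
Me1: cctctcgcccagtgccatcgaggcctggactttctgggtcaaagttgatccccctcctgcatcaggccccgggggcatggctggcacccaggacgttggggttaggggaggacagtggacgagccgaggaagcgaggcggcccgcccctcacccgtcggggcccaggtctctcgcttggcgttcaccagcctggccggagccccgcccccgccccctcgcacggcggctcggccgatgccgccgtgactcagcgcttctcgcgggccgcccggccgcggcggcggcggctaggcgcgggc
Fasn: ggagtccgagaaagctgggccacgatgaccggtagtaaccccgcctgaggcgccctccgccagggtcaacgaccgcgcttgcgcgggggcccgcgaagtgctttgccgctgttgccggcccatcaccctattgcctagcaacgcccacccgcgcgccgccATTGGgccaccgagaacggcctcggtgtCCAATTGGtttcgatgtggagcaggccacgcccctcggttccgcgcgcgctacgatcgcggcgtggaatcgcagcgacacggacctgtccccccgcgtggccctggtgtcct
Ucp1: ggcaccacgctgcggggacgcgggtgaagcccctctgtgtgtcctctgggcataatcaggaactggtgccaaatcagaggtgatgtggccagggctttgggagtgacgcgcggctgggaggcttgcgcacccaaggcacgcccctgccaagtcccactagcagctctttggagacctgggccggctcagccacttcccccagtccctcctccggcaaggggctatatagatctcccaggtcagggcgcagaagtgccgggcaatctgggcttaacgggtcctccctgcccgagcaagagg
Dio2: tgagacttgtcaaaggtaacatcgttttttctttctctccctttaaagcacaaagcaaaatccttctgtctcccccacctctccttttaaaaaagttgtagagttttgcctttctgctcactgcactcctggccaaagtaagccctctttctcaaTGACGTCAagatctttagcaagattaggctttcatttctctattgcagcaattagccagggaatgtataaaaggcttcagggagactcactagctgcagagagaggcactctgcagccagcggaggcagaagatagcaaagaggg
Of the 5 motifs searched on both strands, CCAAT (the CCAAT box, ATTGG on the other strand) matched the Acly window at base 38 after the start. It matched the Fasn window at 3 places, the first of them 90 bases before the start, and 2 of the matches overlap. The letters TGACGTCA, a cyclic AMP response element, matched the Dio2 window at base -95. The promoter table holds 16 windows for 15 of the fatty acid synthesis members and 20 windows for 15 of the thermogenic members. CCAAT was found in 10 of the 16 windows, in 6 of the 20 and in 37.4% of all 32851 promoter windows. One of the 10 is a second window of Me1, not shown, at chr9:86687228-86687527, with its match at base -208. TGACGTCA was found in 2 of the 20 thermogenic windows, those of Clstn3 and Dio2, in 2 of the 16 fatty acid synthesis windows and in 1.79% of all windows. The sterol response element TCACNCCAC (1.24% of all windows) and a direct-repeat PPAR response element (0.0396%) matched no window of either list. CACGTG, an E-box, was found in 2 windows of each list and in 7.15% of all windows. These are matches of letters, and no binding was measured.

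The libraries held 47642196 UMIs at room temperature and 21017422 after cold, over 8469 and 5028 barcodes. Adipocyte nuclei held 40479391 and 17954060 of these UMIs, with a median of 6213 and 4685 per nucleus. They made up 63.3% (62.3 to 64.4) of the kept nuclei at room temperature and 59.1% (57.8 to 60.5) after cold, but 75.9% and 83.1% where at least 1000 genes were required per nucleus. The libraries shared 14 barcodes, of which 5 were adipocyte nuclei in both. Adipocyte genes outside the rule stood where the label puts them. Fabp4, a fatty acid carrier, was at 1937 and 1687 CPM in adipocyte nuclei and at 438 and 427 CPM in nuclei of other classes. The rule's own genes are given as a description only: Adipoq, the adiponectin gene, was at 227 CPM at room temperature and 158 CPM after cold, Plin1 at 862 and 951 CPM, Lipe at 1149 and 923 CPM, and Cidec at 2073 and 1068 CPM. At the edge of the rule, 250 room-temperature and 35 cold nuclei had an adipocyte sum of 3, and 255 and 71 nuclei with a sum of 2 lay just outside. Me1 was at 331 CPM in the cold nuclei just inside and at 230 CPM in those just outside.

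Over all genes, 16204 had at least 20 counts in both libraries together, and their median log2 ratio was -0.20. Ratios are the log2 of cold over room temperature with 1 CPM added to both, which understates the difference of genes at low levels. A gene is called higher or lower when this ratio reaches 2-fold. By this rule 359 genes were higher after cold, a background of 2.22%, and 1123 were lower, a background of 6.93%. The counts of list members given below are to be read against these shares. Lists and members were chosen with earlier results of these data known, so a count above these shares is a description, not a test. The share of called genes that were higher was 24.2%. It was 36.6% (489 higher, 847 lower) with TMM scaling, which moved the median of all genes by 0.13.

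**Figure D1:**
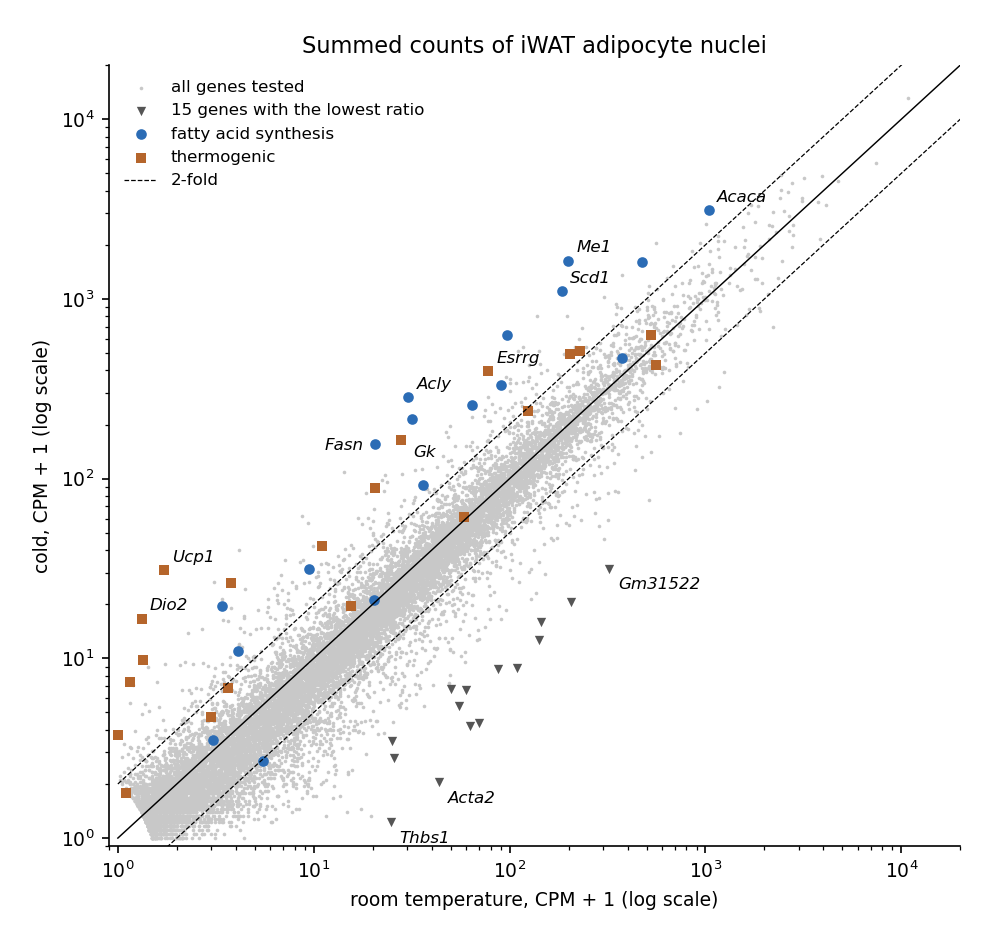
Level of each gene in adipocyte nuclei of the room-temperature library (horizontal) and of the cold library (vertical), as CPM + 1 on log axes; grey points are the 16204 genes with at least 20 counts and the dashed lines mark 2-fold. Most fatty acid synthesis and thermogenic genes lie above the upper dashed line, and Acta2, Thbs1 and Gm31522 lie far below the lower one.

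Genes of fatty acid synthesis were higher after cold at nearly every step. Of 18 members, all with enough counts, 14 were higher, 1 was lower and 3 lay between, with a median log2 ratio of 1.82 beside -0.20 for all genes and a background of 2.22% higher. Their levels summed to 2669 CPM at room temperature and 9980 CPM after cold, 3.74-fold (3.71 to 3.77). In nuclei of other classes from the same libraries the members summed to 791 and 947 CPM, and 4 of the 17 counted there were higher, where 3.22% of all genes were.

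Genes that supply acetyl-CoA and NADPH included Acly and Me1, the members with the highest folds. Acly was at 29.3 CPM at room temperature and 282 CPM after cold, 9.62-fold higher (9.03 to 10.3). Me1 was at 198 and 1630 CPM, 8.23-fold higher (8.03 to 8.43). Acss2, which makes acetyl-CoA from acetate, was at 95.6 and 630 CPM, 6.59-fold higher (6.35 to 6.83). The citrate carrier Slc25a1, which brings mitochondrial citrate to the cytosol, was at 8.45 and 30.4 CPM. Aacs, which activates acetoacetate for lipid synthesis, was at 89.6 and 333 CPM. All 5 passed 2-fold, whereas G6pdx and Idh2, sources of NADPH on other lists, were at 48.7 and 51.5 CPM at room temperature and at 37.5 and 24.1 CPM after cold.

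The committed steps follow in the pathway. Acaca, acetyl-CoA carboxylase 1, was at 1038 and 3128 CPM, 3.01-fold higher (2.98 to 3.05). Acacb, the carboxylase whose malonyl-CoA restrains entry of fatty acids into mitochondria, was at 473 and 1612 CPM, 3.41-fold higher (3.35 to 3.47). Fasn was at 19.4 and 155 CPM, 8.00-fold higher (7.38 to 8.66). Thrsp, a nuclear protein tied to lipogenic enzymes, was at 63.1 and 255 CPM, while its relative Mid1ip1 was at 2.08 and 2.51 CPM with a fold interval of 0.822 to 1.76.

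Elongation and desaturation genes were higher with 1 exception. Elovl6, which lengthens palmitate, was at 30.7 and 214 CPM, 6.97-fold higher (6.54 to 7.44), and Elovl5 was at 35.1 and 91.2 CPM. Scd1, the stearoyl-CoA desaturase that makes oleate, was at 184 and 1099 CPM, 5.99-fold higher (5.83 to 6.15). Scd2 was at 2.42 and 18.6 CPM, and Scd1 and Scd2 are close relatives between which reads could be split. The desaturase Fads1 was at 3.09 and 9.97 CPM, with a log2 ratio of 0.61 when 10 CPM was added in place of 1. Fads2 was the exception, at 4.496 CPM at room temperature and 1.67 CPM after cold, and its log2 ratio of -1.04 was -0.24 without the deepest 10% of nuclei. Acsl5, an acyl-CoA synthetase, had a fold of 1.04 (0.916 to 1.18), and Pnpla3, a lipid droplet protein, at 374 and 468 CPM.

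**Figure D2:**
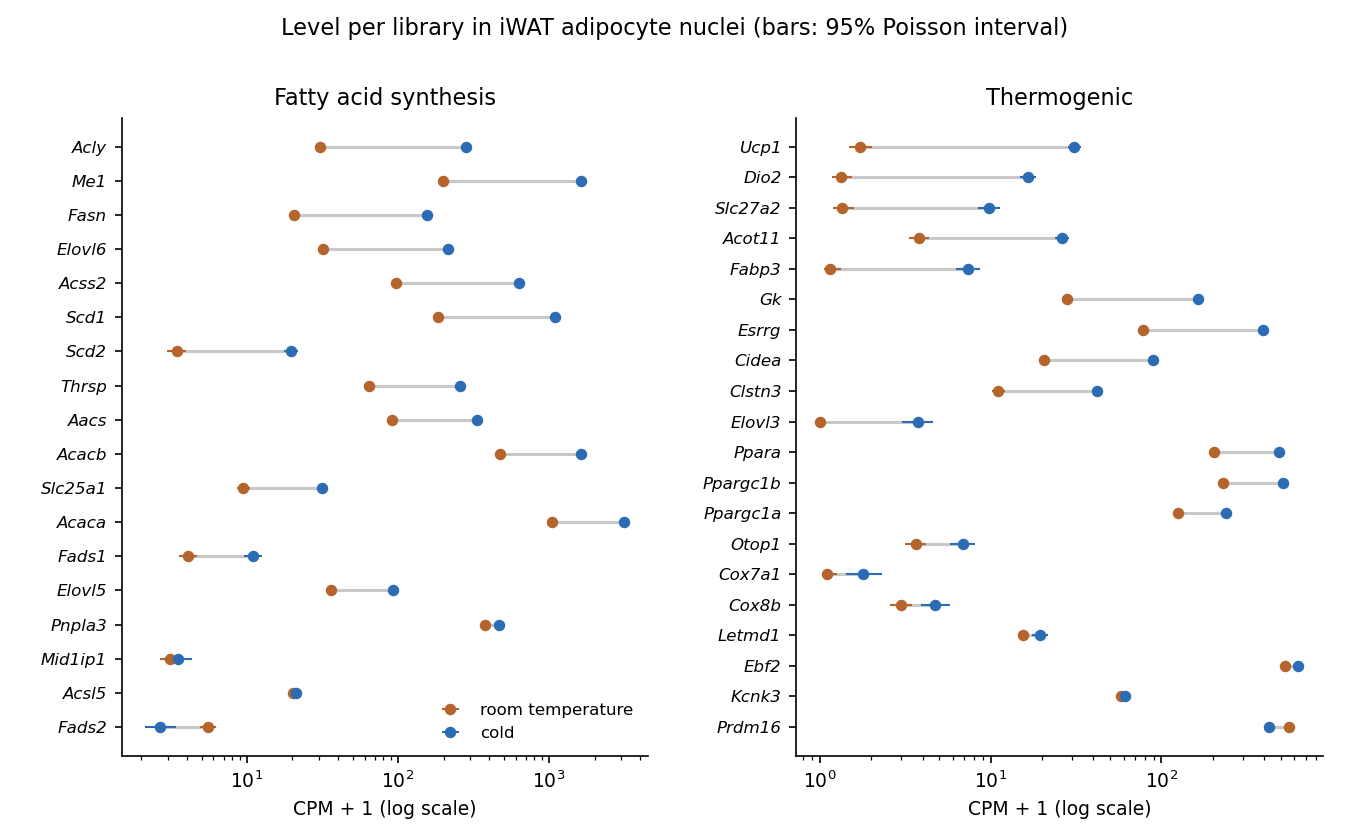
Level of each fatty acid synthesis member (left) and thermogenic member (right) in adipocyte nuclei, as CPM + 1 on a log axis, with 1 point for each library and exact 95% Poisson intervals. Acly, Me1 and Fasn are the fatty acid synthesis genes with the widest gaps, Fads2 and Prdm16 are the members whose cold point lies to the left, and Ucp1, Dio2 and Elovl3 start near the left edge.

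Regulators of these enzymes were mostly at similar levels in both libraries. Among 11 members of the list, 1 was higher, where 2.22% of all genes were, and none was lower, where 6.93% were. The median log2 ratio was 0.07. The member that was higher is Insig1, which retains the SREBP complex in the endoplasmic reticulum and is itself a known SREBP target, at 21.4 and 97.1 CPM, 4.55-fold (4.19 to 4.94). Srebf1, which encodes the lipogenic factor SREBP-1, was at 81.4 and 118 CPM. Mlxipl, which encodes the glucose-responsive factor ChREBP, was at 357 and 332 CPM. Lpin1, a phosphatidate phosphatase, was at 252 and 486 CPM, 1.93-fold (1.87 to 1.98), with a log2 ratio of 1.10 with TMM scaling. Members that were higher numbered 2 with TMM scaling and 3 with subtraction of the level in other nuclei. As the mean of nuclei and with subtraction 1 member was lower. Over all 16204 genes, 489 were higher with TMM scaling and 1621 with subtraction. Genes lower over all numbered 1622 as the mean of nuclei and 1819 with subtraction. The 3′ counts do not separate the isoforms of Srebf1 or Mlxipl.

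Summed over the list, lipogenic UMIs were higher in many nuclei. To compare nuclei of unlike depth, each was thinned to 1000 UMIs, which left 4922 room-temperature and 2872 cold adipocyte nuclei and left out 323 and 55 shallower ones. A thinned nucleus held a median of 2 fatty acid synthesis UMIs at room temperature and 8 after cold, and means of 2.81 and 10.2. Among cold nuclei 50.4% lay above the room-temperature 95th percentile of 7 UMIs, as did 3.39% of the room-temperature nuclei themselves. Thinned nuclei of other classes held means of 0.806 and 0.979 such UMIs.

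Single genes were found in unlike shares of nuclei. Me1 had a UMI in 16.1% (15.04 to 17.11) of thinned room-temperature nuclei and in 49.6% (47.7 to 51.4) of cold ones, beside 3.96% and 7.00% of other nuclei. Without thinning the Me1 shares were 56.4% and 78.5%. Scd1 was found in 13.9% (12.9 to 14.9) and 51.4% (49.5 to 53.2), beside 5.91% and 8.73% of other nuclei, and in 39.4% and 75.9% without thinning. Acly was found in 2.97% (2.51 to 3.48) and 18.6% (17.2 to 20.1), beside 4.67% and 5.40% of other nuclei, and in 17.4% and 41.6% without thinning. Fasn was found in 2.17% (1.78 to 2.62) and 13.2% (11.9 to 14.5), beside 0.886% and 1.61% of other nuclei, and in 11.9% and 40.7% without thinning. At room temperature the Acly share was therefore no higher than in nuclei of other classes, whose median depth before thinning was 2229 UMIs and, after cold, 1451.5 UMIs. Most cold nuclei still lacked an Acly or a Fasn UMI at this depth.

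**Figure D3:**
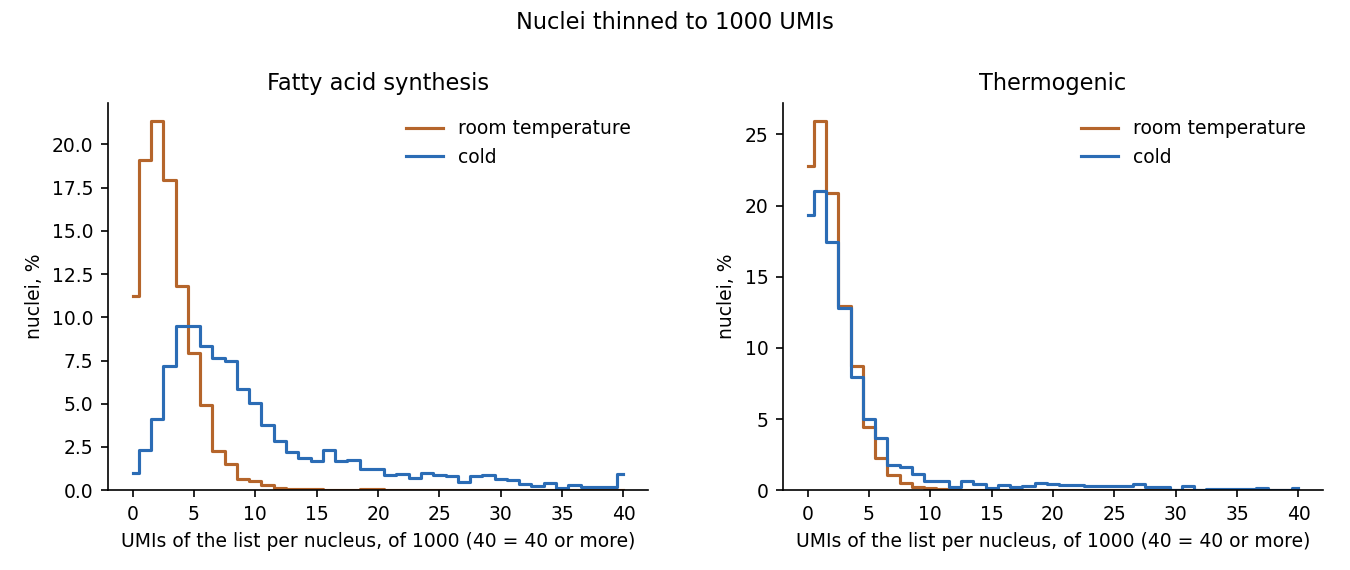
Share of adipocyte nuclei (vertical, in %) by the number of UMIs of the fatty acid synthesis list (left) and the thermogenic list (right) among 1000 UMIs drawn per nucleus (horizontal), with 1 line for each library. The whole fatty acid synthesis distribution lies further right after cold, with medians of 2 and 8, while the thermogenic medians are both 2 and the cold line has a long right tail. The thermogenic UMIs include those of Prdm16 and Ebf2, which did not pass 2-fold.

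Thermogenic genes were higher as well. Of 20 members 19 had enough counts. Of these 12 were higher, where 2.22% of all genes were, and none was lower, where 6.93% were. The median log2 ratio was 1.90, or 1.80 with Elovl3 set at its lower bound. The levels of all 20 members summed to 1852 and 3156 CPM, 1.70-fold (1.69 to 1.72), and to 1500 and 1941 CPM in nuclei of other classes. This fold is smaller than the 3.74 of the fatty acid synthesis sum. Prdm16 and Ebf2, which did not pass 2-fold, made up a large part of the room-temperature sum and hold its fold down. With 10 CPM added in place of 1, which weighs down genes at low levels, 9 were higher and the median was 0.88, while that of fatty acid synthesis genes was 1.66. Members that were higher numbered 14 with TMM scaling, 14 in thinned nuclei and 15 as the mean of nuclei, with medians of 1.96, 1.98 and 2.01. Over all genes, 158 of 16204 were higher with 10 CPM added and 489 of 16204 with TMM scaling. In thinned nuclei 338 of 11744 genes were higher, and as the mean of nuclei 379 of 16204. Ucp1 had 29 counts at room temperature and 538 after cold, which is 0.716 and 30.0 CPM, 41.8-fold higher (28.8 to 63.1). Dio2 had 13 and 280 counts, 48.6-fold higher (27.9 to 92.3). Elovl3, a fatty acid elongase of brown fat, had 0 and 49 counts, at least 36.8-fold higher when the room-temperature library is set at 3 counts. At room temperature none of them had more than 29 counts. Among thinned cold nuclei 16.5% lay above the room-temperature 95th percentile of 5 thermogenic UMIs, as did 4.31% of room-temperature nuclei. These UMIs include those of Prdm16 and Ebf2, so the share does not give how many nuclei had higher levels of the other members.

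Further thermogenic members were present in both libraries. Cidea, a lipid droplet protein of brown and beige fat, was at 19.5 and 88.1 CPM, 4.51-fold higher (4.14 to 4.91). Gk, glycerol kinase, was at 26.8 and 163 CPM, and Esrrg, an orphan nuclear receptor, at 76.9 and 395 CPM. The lipid-handling genes Slc27a2, Fabp3 and Acot11 were at 0.346, 0.148 and 2.79 CPM at room temperature and at 8.80, 6.35 and 25.2 CPM after cold; with 10 CPM added Slc27a2 (0.86) and Fabp3 (0.69) no longer passed 2-fold. Clstn3, whose locus also encodes the lipid droplet protein calsyntenin 3β, was at 10.1 and 40.9 CPM. Ppara, a nuclear receptor for fatty acids, was at 203 and 490 CPM, and Ppargc1b, a coactivator of mitochondrial genes, at 227 and 512 CPM.

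Prdm16 and Ebf2, factors known to specify the brown and beige lineage, did not pass 2-fold. Prdm16 was at 556 and 426 CPM, with a fold of 0.765 (0.746 to 0.786), and Ebf2 at 527 and 628 CPM. The coactivator Ppargc1a was at 124 and 237 CPM, 1.91-fold (1.84 to 1.99), and passed 2-fold with TMM scaling (log2 ratio 1.09), as the mean of nuclei (1.08) and in thinned nuclei (1.15). Kcnk3, a potassium channel, was at 57.3 and 60.3 CPM, Letmd1 at 14.5 and 18.5 CPM, Otop1 at 2.64 and 5.85 CPM and Cox8b at 1.98 and 3.73 CPM. Otop1 had a log2 ratio of 1.04 with TMM scaling, and in thinned nuclei Otop1 and Cox8b had 1.58 and 1.89. Cox7a1 had only 4 and 14 counts.

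Ucp1 counts came from few nuclei. A Ucp1 UMI was found in 13 adipocyte nuclei at room temperature, 0.248% of them, and in 159 after cold, 5.43%. Of the cold nuclei with a Ucp1 UMI 35 held at least 5, with a maximum of 21. Thinned to 1000 UMIs the shares were 0.0610% (0.0126 to 0.178) and 2.99% (2.40 to 3.69), while 0 of 1693 other nuclei of the control library and 2 of 871 of the cold library had one. At this thinned depth a count of 0 among 1693 allows a share of nuclei with a Ucp1 UMI of up to 0.218%, the upper end of its exact interval. Without thinning 0.107% and 0.168% of other nuclei held one.

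The cold nuclei were then described by whether they held a Ucp1 UMI, a division made on a measured value and reported with no test. Of the 159 with a Ucp1 UMI 50 held only 1, so nuclei that express Ucp1 may also lie in the set without. Dio2 was at 232 CPM in the cold nuclei with a Ucp1 UMI and at 5.65 CPM in those without. In room-temperature nuclei without one it was at 0.297 CPM. The 19 thermogenic members apart from Ucp1 summed to 17757 CPM in nuclei with a Ucp1 UMI and to 2455 CPM in those without, beside 1846 CPM in room-temperature nuclei without one. Gk stood at 2071 and 75.03 CPM in the 2 sets of cold nuclei, Esrrg at 3119 and 270 CPM, and Cidea at 917 and 50.04 CPM. In room-temperature nuclei without Ucp1, Gk was at 26.8 CPM, Esrrg at 76.4 CPM and Cidea at 19.1 CPM. Fatty acid synthesis genes had another distribution: they summed to 8905 CPM in cold nuclei with a Ucp1 UMI and to 10029 CPM in those without. Fasn was at 78.8 and 159 CPM in these sets, and Me1 at 845 and 1666 CPM. At room temperature the fatty acid synthesis sum was 6618 CPM in the 13 nuclei with a Ucp1 UMI and 2660 CPM in those without. Leaving out every nucleus with a Ucp1 UMI kept 14 of 18 fatty acid synthesis members higher, with a median of 1.84. It left 8 of 17 thermogenic members higher, with a median of 0.79. Over all genes 327 of 16151 were then higher. Ppara (0.76) and Ppargc1b (0.79) then no longer passed 2-fold.

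Of 10 creatine and calcium cycling genes with enough counts, proposed to make heat without Ucp1, 0 were higher and 1 was lower. With 2.22% of all genes higher and 6.93% lower, these counts do not set the list apart. Ryr2, a calcium release channel, was lower at 24.1 and 6.85 CPM, 3.52-fold, with a log2 ratio of -0.98 in thinned nuclei. Atp2a2, the calcium pump SERCA2, was at 133 and 175 CPM, and Ckb, a creatine kinase, at 2.52 and 3.29 CPM with a fold interval of 0.930 to 1.81. Alpl, a phosphatase, had 20 and 24 counts.

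Receptors and the cyclic AMP pathway were largely at like levels, with 1 higher and 2 lower of 23 members and a median of -0.05. These counts are near the shares over all genes, 2.22% higher and 6.93% lower. The receptor genes Adrb3 and Adrb1 were at 383 and 24.5 CPM at room temperature and at 389 and 36.6 CPM after cold. The member that was higher is Adcy10, a soluble adenylyl cyclase, at 6.40 and 22.1 CPM, 3.46-fold (2.95 to 4.06), with a log2 ratio of 0.97 when 10 CPM was added. The phosphodiesterase genes Pde3a (16.1 and 4.62 CPM) and Pde4b (6.25 and 1.84 CPM) were lower. In nuclei with no UMI of the 6 other-class genes their log2 ratios were -0.38 and -0.11, and both genes stood higher in nuclei of other classes, Pde3a at 644 and 304 CPM. Pde3b, the phosphodiesterase through which insulin restrains lipolysis, was at 2218 and 3028 CPM, and Prkar2b, a regulatory subunit of protein kinase A, at 1858 and 3282 CPM, 1.77-fold (1.75 to 1.79).

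Among lipolysis genes the coactivator of the first lipase was higher. Abhd5, which activates adipose triglyceride lipase, was at 129 and 320 CPM, 2.49-fold higher (2.40 to 2.58), while the lipase gene Pnpla2 itself was at 122 and 125 CPM. Fabp5, a fatty acid carrier, was at 3.76 and 12.6 CPM. Hilpda, an inhibitor of that lipase, was lower at 3.78 and 0.780 CPM, and G0s2, another inhibitor, was at 121 and 83.1 CPM. Of 9 members 2 were higher, where 2.22% of all genes were, and 1 was lower, where 6.93% were. With 10 CPM added the log2 ratios of Fabp5 and Hilpda were 0.72 and -0.35, and after subtraction of the level in other nuclei 0.42 and -0.07, so that of the 3 only Abhd5 stayed past 2-fold under these settings.

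Among genes for the uptake of circulating lipid, 3 of 11 were higher, where 2.22% of all genes were, and 1 was lower, where 6.93% were. Lpl, lipoprotein lipase, was at 557 and 2059 CPM, 3.70-fold higher (3.63 to 3.76). Its inhibitor Angptl4 was lower at 170 and 83.8 CPM, although its log2 ratio of -1.01 was -0.85 with TMM scaling. Slc27a1, a fatty acid transporter, was at 513 and 1173 CPM. Cd36, another fatty acid transporter, was at 1418 and 1949 CPM and did not pass 2-fold.

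Of 14 triglyceride synthesis genes 2 were higher, where 2.22% of all genes were, and none was lower. They were Gpam, the mitochondrial enzyme of the first acylation step, at 115 and 344 CPM, and Agpat2, the enzyme of the second, at 73.9 and 240 CPM. Dgat1 and Dgat2, which carry out the last step, were at 132 and 452 CPM at room temperature and at 236 and 491 CPM after cold. Pck1, which feeds glycerol synthesis, was at 1117 and 888 CPM.

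Oxidation genes showed few large differences beside 1 very large one. Cpt1b, the muscle and brown fat form of the enzyme that admits fatty acids to mitochondria, was at 3.16 and 39.2 CPM, 12.4-fold higher (10.2 to 15.1). In cold nuclei it stood at 474 CPM with a Ucp1 UMI and at 19.2 CPM without. The liver form Cpt1a was at 27.7 and 22.5 CPM. Ehhadh, a peroxisomal enzyme, was at 105 and 261 CPM, and the carnitine carrier Slc25a20 at 67.1 and 149 CPM. The log2 ratio of Slc25a20 was 0.97 without nuclei with a Ucp1 UMI. Cpt1b, Ehhadh and Slc25a20 were the 3 of 20 members that were higher, where 2.22% of all genes were. The other 17 lay between, with a list median of 0.36.

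None of 21 respiratory chain genes passed 2-fold, and all had log2 ratios above 0, from 0.10 to 0.82, beside the all-gene median of -0.20. Cox5a, a subunit of cytochrome oxidase, was at 18.2 and 32.8 CPM, with a log2 ratio of 1.06 in thinned nuclei. After subtraction of the level in other nuclei, which was close to that in adipocyte nuclei for many of these genes, 15 of the 21 passed 2-fold upward, where 1621 of all 16204 genes did; Ndufa9 had 2.19 and Atp5a1 1.99. The same subtraction gave 7 of 13 citrate cycle genes higher. In the citrate cycle list 2 of 13 genes were higher, where 2.22% of all genes were, and 1 was lower, where 6.93% were. Among those higher was the anaplerotic enzyme Pcx at 681 and 1516 CPM. Cs, citrate synthase, was at 99.9 and 194 CPM, 1.94-fold (1.85 to 2.03), with a log2 ratio of 1.11 with TMM scaling. Idh2, an isocitrate dehydrogenase that yields NADPH in mitochondria, was lower at 51.5 and 24.1 CPM, with a log2 ratio of -1.07 that was -0.91 with TMM scaling.

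Of 9 glycogen genes 4 were higher, where 2.22% of all genes were, and none was lower. Gys2, the glycogen synthase known from liver, was at 7.76 and 61.1 CPM, 7.88-fold higher (6.94 to 8.96), while Gys1 was at 183 and 220 CPM. The branching enzyme Gbe1 was at 370 and 889 CPM, the targeting subunit Ppp1r3b at 8.94 and 41.3 CPM, and the phosphorylase Pygl at 57.7 and 123 CPM. Pygl, the gene of breakdown among the 4, had a log2 ratio of 0.97 with 10 CPM added and 0.94 without the deepest 10% of nuclei. Of 20 genes of glucose use 2 were higher, beside the same 2.22%: Tkt, a transketolase of the pentose phosphate pathway, at 63.0 and 219 CPM, and Pdk4, which restrains pyruvate dehydrogenase, at 63.3 and 143 CPM. Without nuclei with a Ucp1 UMI the log2 ratio of Pdk4 was 0.72. In thinned nuclei 4 glucose use genes were higher, where 338 of 11744 genes were. With subtraction 10 were higher, where 1621 of all 16204 genes were. Slc2a4, the insulin-responsive glucose transporter, was at 31.8 and 38.0 CPM, and G6pdx, the entry enzyme of the pentose phosphate pathway, at 48.7 and 37.5 CPM.

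Of 13 insulin signalling genes 1 was higher and 1 lower, where 2.22% and 6.93% of all genes were, so the counts do not set the list apart. Grb14, an adaptor that inhibits the insulin receptor, was at 526 CPM at room temperature and 140 CPM after cold, 3.77-fold lower. Pik3r1, a regulatory subunit of PI3 kinase, was at 856 and 1843 CPM, 2.15-fold higher (2.12 to 2.19), with a log2 ratio of 0.97 without the deepest 10% of nuclei. Irs1 was at 503 and 904 CPM, with a log2 ratio of 1.01 with TMM scaling, and Irs2 at 213 and 128 CPM. The other 11 genes lay between. With subtraction 4 genes of the list were higher and 2 lower, where 1621 and 1819 of all 16204 genes were.

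Cholesterol synthesis genes were higher in part, 6 of 18 with enough counts, beside 2.22% of all genes, and none lower, with a median of 0.75. They were Msmo1 (9.51 and 29.2 CPM), Nsdhl (19.6 and 45.0 CPM), Lss, Fdps, Mvd and Hsd17b7, all enzymes of the pathway. Hmgcs1, an early enzyme of the pathway, was at 112 and 102 CPM. Most of these genes had low levels, and the log2 ratios of Hsd17b7, Fdps, Mvd, Lss and Nsdhl fell below 1 with 10 CPM added in place of 1. Members that were higher numbered 1 with 10 CPM added, 3 in thinned nuclei and 11 with subtraction. Over all genes, 158 of 16204 were higher with 10 CPM added, 338 of 11744 in thinned nuclei and 1621 of 16204 with subtraction. In nuclei of other classes the list ran the other way, with 5 of 17 lower, where 6.53% of all genes were, and none higher.

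Of 14 white adipocyte and adipokine genes 5 were lower, where 6.93% of all genes were, and 1 was higher, where 2.22% were, with a median of -0.65. Mest, an imprinted gene tied to adipocyte enlargement, was at 94.5 and 17.5 CPM, 5.40-fold lower. Sfrp5, a secreted WNT inhibitor, had 207 and 9 counts, 10.2-fold lower, with a log2 ratio of -0.53 when 10 CPM was added. Itih5 was at 433 and 180 CPM. Lep, the leptin gene, was at 233 and 105 CPM, and Nnat, an imprinted gene, at 1879 and 885 CPM. With TMM scaling 3 remained lower, and the log2 ratios of Lep and Nnat were -0.99 and -0.93. The gene that was higher is Cyp2e1, a cytochrome P450, at 232 and 684 CPM. Retn, the resistin gene, was at 112 and 156 CPM.

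Transcription factors of the adipocyte were mostly between, 14 of 17. Of the rest 2 were higher, where 2.22% of all genes were, and 1 was lower, where 6.93% were. Esrra, a receptor that drives mitochondrial genes, was at 44.4 and 132 CPM, 2.98-fold higher (2.80 to 3.17). Nr3c1, the glucocorticoid receptor, was at 434 and 903 CPM, with a log2 ratio of 1.05 that was 0.99 without the deepest 10% of nuclei. Tle3, a corepressor known to favour the white state, was lower at 173 and 83.7 CPM. Its log2 ratio of -1.04 lay between -0.97 and -0.88 with TMM scaling, with 10 CPM added, as the mean of nuclei and in thinned nuclei, and so no longer passed 2-fold. Pparg, the main adipogenic factor, was at 2415 and 3651 CPM. With subtraction 4 factors were higher and 2 lower, where 1621 and 1819 of all 16204 genes were.

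Matrix genes included 5 of 13 that were lower, where 6.93% of all genes were, and none higher, with a median of -0.74. Col5a3 was at 128 and 20.3 CPM, 6.32-fold lower. The collagen VI genes Col6a3, Col6a1 and Col6a2 were at 76.8, 15.6 and 11.6 CPM at room temperature and at 17.7, 3.29 and 3.34 CPM after cold. Col4a1, a basement membrane collagen, was at 455 and 209 CPM, and its log2 ratio of -1.12 was -0.96 with TMM scaling. Lama4, a basement membrane laminin, was at 1566 and 1560 CPM. Markers of stromal progenitors moved with these genes: 5 of 8 were lower, their sum in adipocyte nuclei was 185 and 117 CPM, and none was at 0 in either library. All 5 matrix genes stood higher in nuclei of other classes, Col6a3 at 623 and 451 CPM, so none was left after subtraction of that level. In adipocyte nuclei with no UMI of the 6 other-class genes, which include the stromal genes Lama2 and Dcn, all 5 were still at least 2-fold lower.

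**Figure D4:**
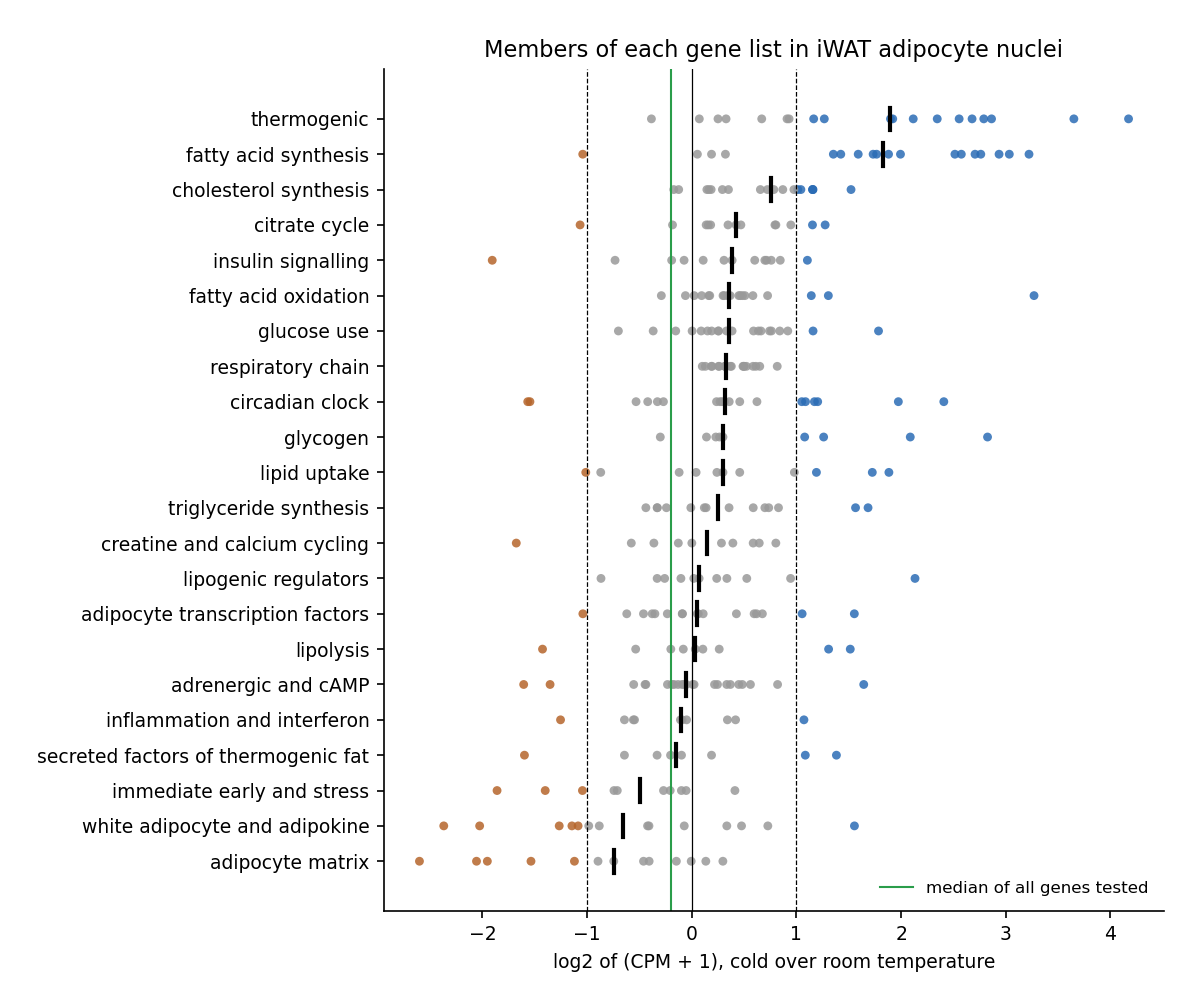
Log2 ratio of cold over room temperature, with 1 CPM added, for each member with at least 20 counts (points) of 22 gene lists, ordered by the list median (black bar); blue points are at least 2-fold higher, brown points at least 2-fold lower, and the green line is the median of all genes. Thermogenic and fatty acid synthesis genes have medians of 1.90 and 1.82, all respiratory chain genes lie between 0.10 and 0.82, and matrix genes have the lowest median, -0.74.

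Of 8 secreted factors of thermogenic fat with enough counts 2 were higher, where 2.22% of all genes were, and 1 was lower, where 6.93% were. The 2 that were higher had high counts. Nrg4, a growth factor of the EGF family made by brown fat, was at 1000 and 2609 CPM, 2.61-fold higher (2.57 to 2.64). It had a UMI in 54.5% and 87.6% of thinned adipocyte nuclei, beside 6.97% and 6.08% of other nuclei. Angpt1, a vascular growth factor, was at 508 and 1080 CPM, 2.12-fold higher (2.08 to 2.17), with a log2 ratio of 0.95 without the deepest 10% of nuclei. Adm, adrenomedullin, was lower with 123 and 6 counts, but its log2 ratio was -0.34 with 10 CPM added. Vegfa was at 460 and 430 CPM. Fgf21 had 12 and 2 counts, too few to compare.

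Clock genes were called in adipocyte nuclei and in other nuclei. Of 19 members 6 were higher in adipocyte nuclei, where 2.22% of all genes were, led by Ciart at 0.741 and 8.24 CPM and Cry1 at 5.24 and 23.5 CPM, both repressors of the clock. Npas2 and Nr1d1 were lower, at 10.9 and 56.6 CPM before and 3.01 and 18.7 CPM after cold. With 10 CPM added the log2 ratios of Ciart and Npas2 were 0.76 and -0.68, and subtraction of the level in other nuclei left 0 for Cry1 and Npas2. Clock genes that were higher and lower numbered 2 and 1 with 10 CPM added and 4 and 5 with subtraction. Over all 16204 genes, 158 were higher and 256 lower with 10 CPM added, and 1621 and 1819 with subtraction. In nuclei of other classes 5 were higher and 3 lower, where 3.22% and 6.53% of all genes were. Ciart, Per2 and Per3 were higher in both, 3 of the 6 and of the 5, and Npas2 was lower in both. The hour of collection is not given in the labels used here and was not tested.

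Of 10 immediate early and stress genes with enough counts 0 were higher, where 2.22% of all genes were, and 3 were lower, where 6.93% were. They were Jun (12.1 and 2.62 CPM), Junb (5.31 and 1.39 CPM) and Egr1 (3.01 and 0.947 CPM), all at low levels. With 10 CPM added their log2 ratios were -0.81, -0.43 and -0.25, and that of Egr1 was -0.94 with TMM scaling. Of 10 inflammation genes Cd274 was higher at 24.1 and 51.8 CPM, and Ifit1 was lower with 99 and 8 counts, which is near the share over all genes. With 10 CPM added neither passed 2-fold, at log2 ratios of 0.86 and -0.25.

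Ranked over all genes with at least 20 CPM in either library and without the rule's genes, the 15 highest ratios were those of Ucp1, Cpt1b, Acly, Ntng1, Me1, Fasn, Gsta3, Gys2, Acot11, Elovl6, Acss2, Hephl1, Prlr, Scd1 and Gk. Of these 9 belong to the fatty acid synthesis or thermogenic list. The lists were chosen with earlier results of these data known, so the 9 are a description only. The share of their members among the 6393 genes ranked was not counted. Some genes, such as Ucp1 and Hephl1, reached 20 CPM only in the cold library. Ntng1, a membrane-anchored netrin, was at 2.10 and 25.6 CPM, 12.2-fold higher (9.66 to 15.6). Gsta3, a glutathione transferase of a family of similar genes, was at 13.3 and 108 CPM. Prlr, the prolactin receptor, was at 8.30 and 55.6 CPM, and Hephl1, a copper oxidase, at 2.42 and 20.4 CPM.

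The 15 lowest ratios belonged to another kind of gene. Acta2, smooth muscle actin, had 1728 counts at room temperature and 19 after cold, 40.3-fold lower (25.8 to 67.2). Thbs1, the matrix protein thrombospondin 1, had 968 and 4 counts, 107-fold lower (41.8 to 395). Vgll3, a cofactor of TEAD factors, was at 204 and 19.7 CPM, and Nexn, an actin-binding protein, at 49.1 and 5.74 CPM. The matrix genes Fbln5 and Lama3 were at 68.7 and 54.2 CPM before and 3.34 and 4.40 CPM after cold.

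Mural markers, which include smooth muscle genes, had like sums in both libraries beside the low cold level of Acta2. The 5 markers summed to 21.3 and 20.6 CPM in adipocyte nuclei, with Myh11 at 1.66 and 1.23 CPM, and Acta2 itself was at 4.80 and 0.916 CPM in nuclei of other classes. Acta2 had a UMI in 2.03% (1.66 to 2.47) of thinned room-temperature nuclei and in 0.139% (0.0380 to 0.356) of cold ones, beside 0.295% and 0.115% of other nuclei. Without thinning the shares were 8.96% and 0.342%. Acta1, a closely related actin gene on the skeletal muscle list, had 206 and 4 counts, while Ttn and Neb, the giant proteins of skeletal muscle, were at 4.35 and 7.98 CPM before and 6.29 and 7.74 CPM after cold.

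The gene among them with the most counts was a long noncoding RNA. Gm31522 lies at chr11:81983119-82019967 on the minus strand (GRCm38) and was at 322 and 30.6 CPM, 10.5-fold lower. It had a UMI in 23.6% (22.4 to 24.8) of thinned room-temperature nuclei and in 2.54% (2.00 to 3.19) of cold ones, beside 2.30% and 0.344% of other nuclei. Gm17268 lies next to it at chr11:82028224-82038562 on the same strand and was at 144 and 14.98 CPM. It overlaps Ccl2, a chemokine gene on the other strand with its own counts, at 1.78 and 0.780 CPM. Since the use of strand is not given, whether reads of 1 gene were counted for the other could not be checked. Ccdc152 (108 and 7.80 CPM) overlaps Selenop, at 33.6 and 53.4 CPM, in the same way. Gabrr2, Gask1b, Nhs and Gm2682 were also among the 15. In nuclei of other classes Vgll3 was at 206 and 63.7 CPM, Gask1b at 195 and 359 CPM and Nhs at 60.8 and 65.1 CPM. After subtraction of that level the log2 ratios of Vgll3, Gask1b, Nhs and Gm2682 were 0.

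Markers of other cell types were counted in the same nuclei, and those of lymphocytes differed between the libraries. Their sum in adipocyte nuclei was 79.0 and 11.4 CPM, with 5 of 6 lower, where 6.93% of all genes were, and none at 0. In nuclei of other classes the lymphocyte sum was 1296 and 423 CPM. Macrophage markers summed to 108 and 49.1 CPM and endothelial markers to 76.0 and 92.8 CPM, again with none at 0. Of the epithelial markers, Krt5 was at 0 in both libraries and Krt14 and Krt18 at 0 at room temperature. Without adipocyte nuclei that held a lymphocyte marker UMI, 14 fatty acid synthesis and 12 thermogenic members were higher. Over all 15683 genes counted, 370 were higher and 952 lower. Of the 15 lowest genes, Gm2682, a noncoding RNA also found at 400 and 117 CPM in nuclei of other classes, then had a log2 ratio of -0.95.

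The same comparison in 2 other depots gives the scale of these values. Labels iBAT and mPRAT usually stand for interscapular brown and medial perirenal fat, and both were sampled at the same age and temperatures with 1 library each. In the mPRAT cold library 66.0% of barcodes exceeded the mitochondrial limit and were left out. Of the 18 fatty acid synthesis members 14 were higher in iWAT, 13 in mPRAT (background 7.2%) and 5 in iBAT (background 5.02%), with median log2 ratios of 1.82, 1.202 and 0.671. Their sums were 2669, 9338 and 15378 CPM at room temperature and 9980, 17586 and 21261 CPM after cold. The room-temperature iWAT nuclei had the lowest sum and the widest ratio, and their cold sum lay near the room-temperature sum of mPRAT. Whether the ratios differ between depots could not be tested with 1 library each.

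Single genes had unlike ratios in the depots. Acaca had log2 ratios of 1.59 in iWAT, 0.14 in mPRAT and -0.21 in iBAT. Scd1 had ratios of 2.58, 0.92 and -0.79. Acsl5 ran the other way, with 0.05 in iWAT, 3.55 in mPRAT and 2.56 in iBAT. Ucp1 was at 0.716, 180 and 425 CPM at room temperature and at 30.0, 671 and 1454 CPM after cold, so the cold iWAT level stayed below the room-temperature level of both other depots. Cidea had ratios of 2.12, 0.24 and -0.28. Elovl3 was at 0, 3.53 and 8.71 CPM at room temperature and at 2.73, 98.7 and 203 CPM after cold, and with 0 counts in iWAT its ratios are not ordered here. Of the thermogenic members, 12 of 19 were higher in iWAT (background 2.22%), 9 of 20 in mPRAT (background 7.2%) and 7 of 20 in iBAT (background 5.02%). The white adipocyte genes that were lower numbered 5 of 14 in iWAT, 5 of 14 in mPRAT (background 8.64%) and 4 of 12 in iBAT (background 7.86%), and Lep was among them in each, with ratios of -1.14, -2.32 and -3.41.

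**Figure D5:**
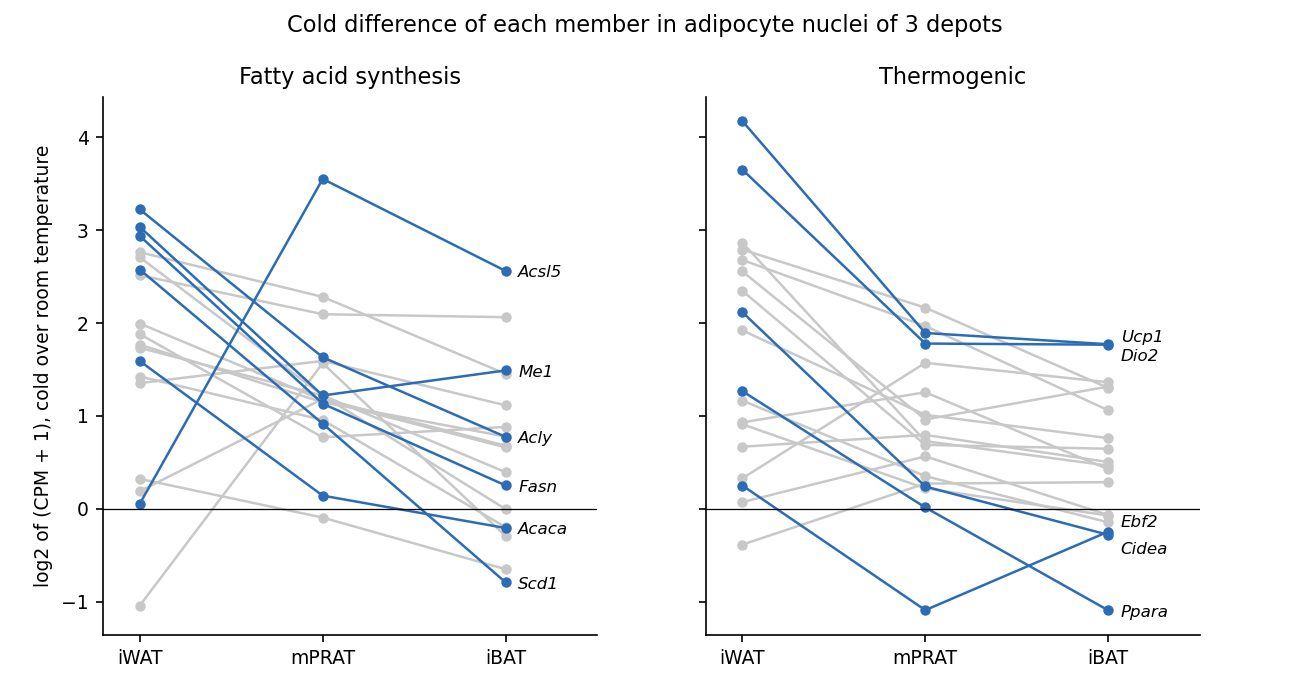
Log2 ratio of cold over room temperature, with 1 CPM added, for each fatty acid synthesis member (left) and thermogenic member (right) with at least 20 counts in iWAT and counts in both iWAT libraries, in adipocyte nuclei of iWAT, mPRAT and iBAT, with lines joining the points of a gene and a few genes named in blue. Acly, Me1, Fasn, Scd1, Ucp1 and Dio2 are highest in iWAT, while Acsl5 is lowest there.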

How the data were processed

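The authors deposited UMI counts per gene and barcode for each library, made with Cell Ranger 7.0.0 per the file headers. The labels give Single-Cell 3′ chemistry on sorted nuclei. The build mm10 is taken from the submitters' processing notes. The annotation release, the counting of introns and the use of strand are not given in the sources used here.

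Nuclei were kept when they had 300 or more genes and no more than 10% of UMIs from mitochondrial genes. No doublet caller was run; a limit on the deepest nuclei and a limit to nuclei without UMIs of other classes were used as alternatives. Counts were summed over adipocyte nuclei, scaled to CPM and compared as log2 ratios with 1 CPM added. Genes needed at least 20 counts in both libraries together. TMM factors came from edgeR 4.0.16, and all else from Python 3.11.15 with scipy 1.17.1. The ratio calculation was tested on simulated data. CPM intervals are exact Poisson, fold intervals exact conditional binomial, and shares Clopper-Pearson. Gene positions are from GENCODE M21, which matched 32235 of 32285 identifiers.

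Named genes are members of the gene lists and the 15 highest and 15 lowest ratios among genes with at least 20 CPM in either library. Members and lists were chosen with earlier results of these data known. Of the listed symbols, 2 (Aldoa and Ddit3) stand for more than 1 identifier and were left out. Some genes of the lists and of the ranking are counted but not reported here by name.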

Additional observations from a re-analysis of the deposited data

Results flagged for a closer look

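Among the genes named for iWAT, 6 were at least 2-fold different after cold with the opposite sign, also at least 2-fold, in another depot. The share of such genes over all genes was not counted, so the 6 are only listed. None of these differences between depots was tested, since each depot had 1 library per temperature. Angpt1 had a log2 ratio of 1.09 in iWAT and -2.70 in iBAT, and its iWAT value was 0.95 without the deepest 10% of nuclei. Ppara had 1.27 in iWAT and -1.09 in iBAT, and its iWAT value was 0.76 without nuclei that held a Ucp1 UMI. Cdh19, a cadherin on the Schwann cell marker list, had 2.17 in iWAT and -1.18 in iBAT. It was at 17.5 and 82.1 CPM in iWAT adipocyte nuclei. The other 2 Schwann cell markers with enough counts there lay between, the list median was -0.10, and the list sum was 349 and 310 CPM. Fads2 had -1.04 in iWAT and 1.57 in mPRAT, Junb -1.40 and 1.24, and Npas2 -1.57 and 1.92. With 10 CPM added the iWAT values of Fads2, Junb and Npas2 were -0.31, -0.43 and -0.68. Subtraction of the level in other nuclei left 0 for each of them. In the mPRAT cold library most barcodes exceeded the mitochondrial limit.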

How the results depend on the processing

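No paired analysis was possible because each group has 1 library and the labels give no replicate numbers. Of 110 named genes called in the main analysis, between 105 and 110 had a value under each of the 14 alternatives; none of those changed direction, and between 0 and 33 fell under 2-fold. Named genes that were between 2-fold limits and passed them under an alternative numbered 64 with subtraction of the level of other classes, 9 as the mean of nuclei, 8 with TMM scaling and 7 in thinned nuclei. Genes higher after cold numbered 158 with 10 CPM added and 1621 with the level of other classes subtracted, against 359, and genes lower numbered 256 and 1819, against 1123. Subtraction sets a gene to 0 in each library where its level in other classes is at least as high, so in 1 library or in both. A gene at 0 in both has a log2 ratio of 0 and is not counted as changing direction. Fatty acid oxidation genes that were higher numbered 5 with subtraction. Adrenergic and cyclic AMP genes that were higher numbered 0 with 10 CPM added and 3 with subtraction, and those lower numbered 0 with 10 CPM added, 0 in nuclei without UMIs of other classes and 1 with subtraction. White adipocyte genes that were lower numbered 3 with TMM scaling. The adipocyte share was 75.9% at room temperature and 83.1% after cold with at least 1000 genes, and 58.0% and 57.5% with an adipocyte sum of at least 6. The cold share of nuclei with Ucp1 was 5.43% without thinning. That of Acly was 27.8% at 2000 UMIs and 41.6% without thinning, and that of Me1 63.9% and 78.5%. At 2000 UMIs the room-temperature shares of Acly and Me1 were 5.58% and 28.7%. The alternative without nuclei holding lymphocyte markers was chosen after seeing the data. Depth limits the genes with few counts. With 10 CPM added, 33 of the named genes no longer passed 2-fold. They include genes at higher levels near the limit, such as Angptl4 (-0.94) and Tle3 (-0.97). The thinned shares depend on the UMIs drawn and are compared between libraries only at the same depth.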

Other observations

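The nuclei left outside the adipocyte class differed between the libraries in their markers. In the 1861 room-temperature and 1194 cold nuclei of other classes, endothelial markers summed to 884 and 2293 CPM, with 6 of 8 at least 2-fold higher, beside 3.22% of the 13054 genes counted there. Macrophage markers summed to 2492 and 3769 CPM, stromal progenitor markers to 5111 and 4034 CPM, and lymphocyte markers to 1296 and 423 CPM, with all 6 lower beside 6.53% of genes. Nuclei of 1 library are not replicates of a condition, so these are values of 2 libraries and were not tested.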
